A study of Mus musculus with 6 samples.

Results

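Monocytes and macrophages are recognised by a small set of surface and secreted proteins, and 10 of the genes that encode them were read here: Ms4a6c, Ly86, Cd300e, F13a1, Fn1, Cd14, Cd68, Adgre1, Ly6c2 and Fcgr1. The genes were chosen by symbol as monocyte markers, and each symbol matched 1 of the 43629 Ensembl gene IDs in the count table. The libraries came from c-kit+ bone marrow of C57BL/6 mice at the end point of leukaemia. Every mouse carried the Cbfb-MYH11 knockin, the mouse counterpart of the fusion gene of inversion 16 acute myeloid leukaemia, including the mice that served as controls. The control group had Gata2+/+ (replicates 3, 5 and 6) and the other group had Gata2+/f (replicates 7, 9 and 11), so each group held 3 libraries. The labels give neither the ages of the mice nor what the f allele changes, and they do not name a Cre driver. They also do not say outright that each library came from a different mouse, so p-values measure the spread between libraries. The comparison asks whether leukaemia that developed with the altered Gata2 allele carried more or less of this monocyte programme.

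Monocytes arise in the marrow from progenitors that they share with neutrophils. Classical monocytes of the mouse carry Ly6C on their surface, and when they enter tissue they become macrophages, which carry F4/80, the product of Adgre1, and the lysosomal protein CD68. Their surface receptors detect bacterial lipopolysaccharide and antibody-coated particles, and their secreted products cross-link fibrin and build matrix. In inversion 16 leukaemia of humans the blasts commonly show monocytic features. The stem cell factor receptor Kit, on which these cells were sorted, is a marker of progenitors and mast cells and is lost as monocytes mature.

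All 10 genes had a higher mean in Gata2+/f than in Gata2+/+, by fitted folds of 1.98 for Fn1 to 9.21 for Cd300e, and none passed the test over all genes. A positive log2 fold change was found for 51.1% of all genes. The median log2 fold change of the 10 genes was 1.84, against 0.019 for all 15432 genes tested. In edgeR's quasi-likelihood test 0 of the 10 had a Benjamini-Hochberg adjusted p below 0.05, and 0.0% of all genes had. Before adjustment, 9 of the 10 were higher at that threshold, against 11.1% of all genes (22.6% in either direction). limma voom called 0 of the 10, against 0.0583% of all genes. DESeq2's Wald test called 5 of the 10 higher (Cd300e, Ms4a6c, Ly86, Adgre1 and F13a1), against 6.58% of all genes. The 3 Gata2+/f libraries lay above the 3 Gata2+/+ libraries for 3 of the 10 (Ms4a6c, Ly86 and Cd300e), against 13.1% of all genes. Some of the genes were already known to lie high in Gata2+/f when the set was drawn up, so these shares are descriptions. Every gene had at least 47 counts in every library, so none was kept only through the group in which it was high. In bulk RNA, more monocytes among the sorted cells and more RNA per cell cannot be told apart.

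**Figure D1:**
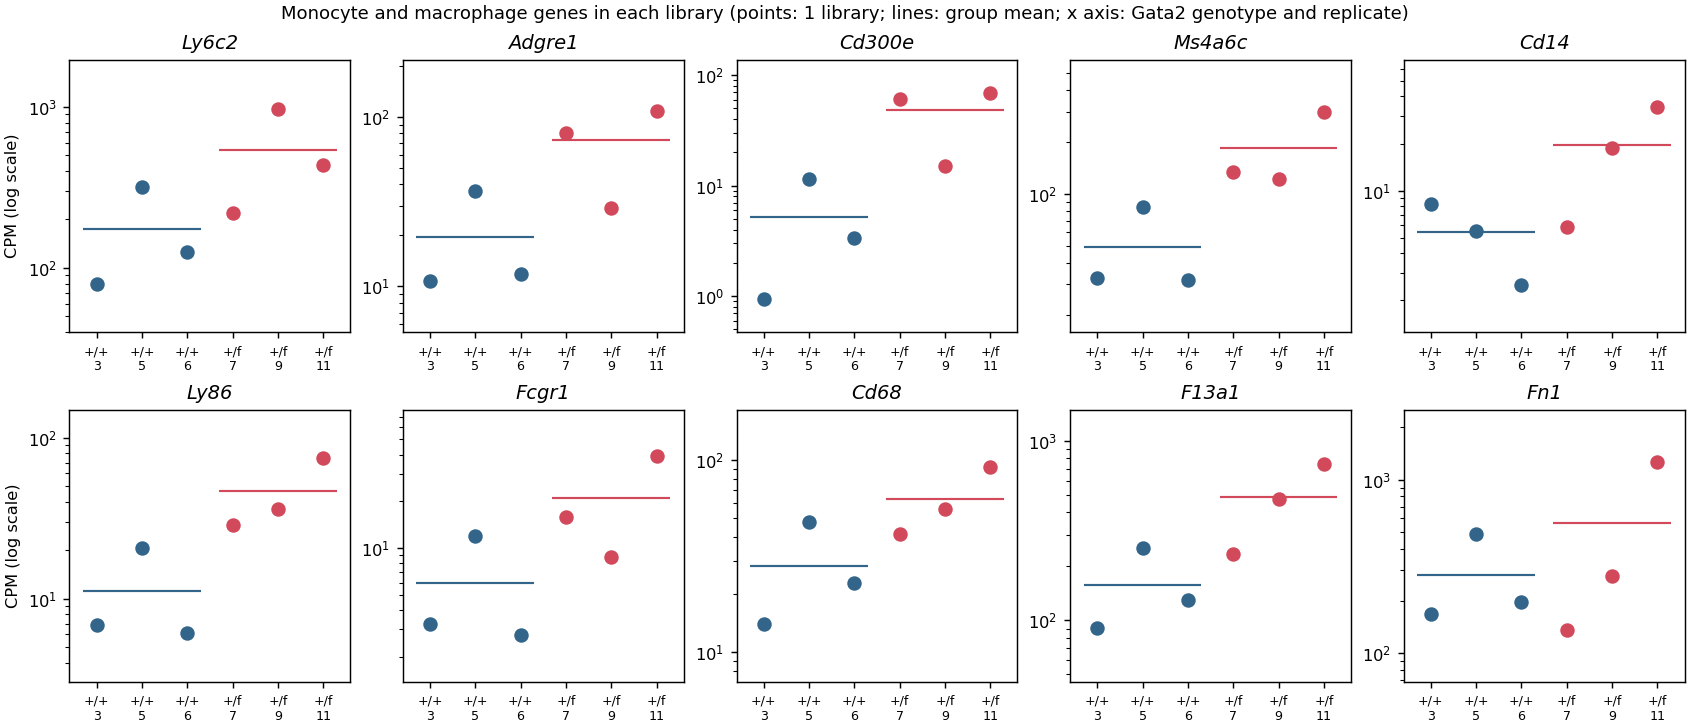
Normalised read counts (CPM, scaled to a common library size by TMM factors; log scale) of each of the 10 genes in each library, with 1 point per library and a line at each group mean. Gata2+/f replicate 11 is the highest library for 9 genes (12.7% of all genes), and Gata2+/+ replicate 5 is the highest of the control libraries for 9.

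Depth did not separate the groups. Gata2 and Kit were lower in each Gata2+/f library than in every control, and neither passed edgeR's threshold over all genes. Library totals ran from 53789568 to 67854631 estimated counts, at which 3 counts are 0.0442 to 0.0558 CPM. Gata2 itself was at 886, 887 and 737 CPM in Gata2+/+ replicates 3, 5 and 6 and at 498, 273 and 264 CPM in Gata2+/f replicates 7, 9 and 11 (edgeR's log2 fold change −1.28, SE 0.32, adjusted p = 0.109). Kit was at 826 to 1466 CPM in the controls and at 175 to 328 CPM in Gata2+/f, so the group with more monocyte marker RNA had less RNA of the sorting receptor. Within Gata2+/f, replicate 11 had the most Kit and the highest median of the 10 genes. What part this lower Kit has in the values of the monocyte genes was not tested.

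Among surface markers of the lineage, Cd300e had the largest difference of the 10 genes. Cd300e (ENSMUSG00000048498) encodes an activating immunoglobulin-like receptor of monocytes and lies on chromosome 11 of GRCm38, from 115051917 to 115062177 on the reverse strand. It stood at 0.940, 11.4 and 3.33 CPM in Gata2+/+ replicates 3, 5 and 6, and at 60.9, 15.0 and 68.4 CPM in Gata2+/f replicates 7, 9 and 11. The groups did not overlap, but Gata2+/f replicate 9 lay nearer to Gata2+/+ replicate 5 than to the other libraries of its own group. Its mean went from 5.21 ± 5.46 CPM (SD, n = 3) to 48.1 ± 28.9 CPM (SD, n = 3), a log2 fold change of 3.20 (SE 0.94, edgeR adjusted p = 0.136). The 95% interval of that change, 1.01 to 5.40, was also the widest of the 10.

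Ms4a6c (ENSMUSG00000079419) encodes a tetraspanning membrane protein of the MS4A family and lies on chromosome 19, from 11469366 to 11482192. It had 32.7, 84.5 and 31.5 CPM in the Gata2+/+ libraries (replicates 3, 5 and 6, the order used from here on) and 134, 122 and 298 CPM in the Gata2+/f libraries (replicates 7, 9 and 11). No Gata2+/f library reached down to the controls, of which replicate 5 was the highest. The log2 fold change was 1.90 (SE 0.52, edgeR adjusted p = 0.126), the smallest p of the set, at rank 828 of the 15432 genes. The gene overlaps the transcript BE692007 on the opposite strand, and 49.6% of its 50-base words also occur in that transcript on either strand. BE692007 was listed at 1.01 to 17.3 CPM, and since the strand setting of the counting is not given, how reads were divided between the genes is uncertain.

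Adgre1 (ENSMUSG00000004730), which encodes the adhesion receptor F4/80, lies on chromosome 17 from 57358691 to 57483527. Its levels were 10.7, 36.5 and 11.8 CPM in the controls and 80.5, 29.2 and 108 CPM in Gata2+/f. The groups overlapped, because Gata2+/f replicate 9 fell below Gata2+/+ replicate 5. The mean was 19.7 ± 14.6 CPM in the controls and 72.7 ± 40.2 CPM in Gata2+/f. The fitted log2 difference was 1.88 (SE 0.63, edgeR adjusted p = 0.159).

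Ly6c2 (ENSMUSG00000022584) encodes Ly6C, the GPI-anchored protein by which classical monocytes are sorted, and lies on chromosome 15 from 75108158 to 75111970. It had 79.6, 318 and 125 CPM in the controls and 219, 978 and 434 CPM in Gata2+/f. Here Gata2+/f replicate 9 was the highest library, the only one of the 10 genes for which replicate 11 was not, and replicate 7 lay below Gata2+/+ replicate 5. The difference was 1.64 on the log2 scale (SE 0.67, edgeR adjusted p = 0.206). Its near-copy Ly6c1 shares 13.9% of the 50-base words of Ly6c2, and was listed at 0.513 to 4.83 CPM. Reads common to both genes were divided by the counting model, so the level of Ly6c2 is uncertain by the part it shares.

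Cd14, Ly86 and Fcgr1 act in the binding of microbial products and antibodies. Cd14 (ENSMUSG00000051439), the co-receptor that passes lipopolysaccharide to the Toll-like receptor Tlr4, lies on chromosome 18 from 36725067 to 36726798. It had 8.28, 5.50 and 2.49 CPM in the controls and 5.84, 18.7 and 34.1 CPM in Gata2+/f. Cd14 was the 1 gene of the set whose highest control was replicate 3, and Gata2+/f replicate 7 lay within the control range. Its log2 fold change was 1.85 (SE 0.70, edgeR adjusted p = 0.186). Ly86 (ENSMUSG00000021423) encodes MD-1, the secreted partner that holds the receptor Cd180 at the cell surface, and lies on chromosome 13 from 37345208 to 37419036. The 3 controls had 6.86, 20.7 and 6.07 CPM of Ly86 and the 3 Gata2+/f libraries 28.7, 36.1 and 74.6 CPM. Its groups did not overlap, and the change was 2.05 on the log2 scale (SE 0.59, edgeR adjusted p = 0.131).

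Fcgr1 (ENSMUSG00000015947) encodes the high-affinity receptor for immunoglobulin G and lies on chromosome 3 from 96282909 to 96293969. It was at 3.24, 11.9 and 2.76 CPM in the controls and at 15.7, 8.76 and 38.9 CPM in Gata2+/f. As for Adgre1, Gata2+/f replicate 9 dropped below Gata2+/+ replicate 5 while replicates 7 and 11 stayed above every control. The log2 fold change was 1.82 (SE 0.75, edgeR adjusted p = 0.210). Cd68 (ENSMUSG00000018774), a heavily glycosylated protein of the lysosome and endosome of macrophages, lies on chromosome 11 from 69664213 to 69666153. It had 14.0, 47.6 and 23.0 CPM against 41.5, 55.8 and 91.7 CPM, the most even levels of the 10 within Gata2+/f, where the highest library was 2.21 times the lowest. Its difference was 1.16 (log2, SE 0.49, edgeR adjusted p = 0.217).

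The promoters were read for letters that the genes share. RefSeq windows on GRCm38.p6 were matched for 7 of the 10 genes (Cd300e, Cd68, F13a1, Fcgr1, Ly6c2, Ly86 and Ms4a6c), and the 250 bases before each start were searched on both strands. PU.1, the ETS factor that directs monocyte development, binds purine-rich sites with a GGAA core. The word GAGGAA was found for 4 of the 7 genes (Cd68, F13a1, Fcgr1 and Ly6c2) and in 23.4% of 32536 promoter windows of the same length. AGGAAGT, a longer word that was added after the windows had been read, was found for 5 of the 7 (Cd300e, F13a1, Fcgr1, Ly6c2 and Ms4a6c) and in 7.7% of windows. The words can share letters, and F13a1 and Ly6c2 each have a pair of RefSeq starts, both of which were searched. The composite element of ETS and interferon regulatory factors was in 0 of the 7 and in 2.31% of windows. The GATA word AGATAA was in the window of Cd300e alone (9.97% of windows), and TTGCNNAA, a pattern of C/EBP factors, in that of Cd68 alone (9.57%), as was the AP-1 word TGANTCA (6.73%). These matches are letters in a window, not measured binding. The windows of Ms4a6c, Ly6c2 and Fcgr1 are shown, since AGGAAGT lies there in bases outside annotated exons. Each is written 5′ to 3′ on the strand of its gene, with AGGAAGT and GAGGAA in capitals, or their reverse complements in Fcgr1.
Ms4a6c, chr19:11469118-11469365, forward strand: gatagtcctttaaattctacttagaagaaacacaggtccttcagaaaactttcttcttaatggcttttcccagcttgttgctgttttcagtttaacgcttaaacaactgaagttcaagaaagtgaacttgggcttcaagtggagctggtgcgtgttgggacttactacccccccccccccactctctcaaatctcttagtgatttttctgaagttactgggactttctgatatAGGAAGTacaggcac
Ly6c2, chr15:75111972-75112221, reverse strand: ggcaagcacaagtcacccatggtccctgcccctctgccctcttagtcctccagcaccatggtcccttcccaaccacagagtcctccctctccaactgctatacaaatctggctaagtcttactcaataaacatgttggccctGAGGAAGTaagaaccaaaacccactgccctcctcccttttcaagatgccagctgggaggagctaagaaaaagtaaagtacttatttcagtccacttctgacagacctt
Fcgr1, chr3:96293970-96294219, reverse strand: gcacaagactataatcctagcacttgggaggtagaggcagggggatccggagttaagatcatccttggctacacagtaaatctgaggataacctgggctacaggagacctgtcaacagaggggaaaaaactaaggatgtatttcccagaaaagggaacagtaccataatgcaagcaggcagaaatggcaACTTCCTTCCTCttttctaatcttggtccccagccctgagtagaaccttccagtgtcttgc
In Ms4a6c the word lies 17 to 11 bases before the RefSeq start, in Ly6c2 107 to 101 bases and in Fcgr1 61 to 55 bases before it.

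Of the secreted products, F13a1 was higher in Gata2+/f on average and Fn1 depended on a single library. F13a1 (ENSMUSG00000039109) encodes the A subunit of coagulation factor XIII, the transglutaminase that cross-links fibrin, and lies on chromosome 13 from 36867178 to 37050244. It was at 90.7, 252 and 131 CPM in the controls and at 234, 472 and 746 CPM in Gata2+/f, and only replicate 7 of the latter fell below the highest control. The log2 fold change was 1.62 (SE 0.52, edgeR adjusted p = 0.151). Fn1 (ENSMUSG00000026193), which encodes the matrix protein fibronectin, lies on chromosome 1 from 71585520 to 71653200. Its levels were 169, 485 and 197 CPM in the controls and 137, 279 and 1265 CPM in Gata2+/f. Gata2+/f replicate 7 was the lowest of the 6 libraries and replicate 11 the highest, 9.25 times as high. The log2 fold change of Fn1 was 0.98 (SE 0.81; 95% interval −0.90 to 2.87; edgeR adjusted p = 0.486), and without Gata2+/f replicate 11 it was −0.42 (adjusted p = 0.679).

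**Figure D2:**
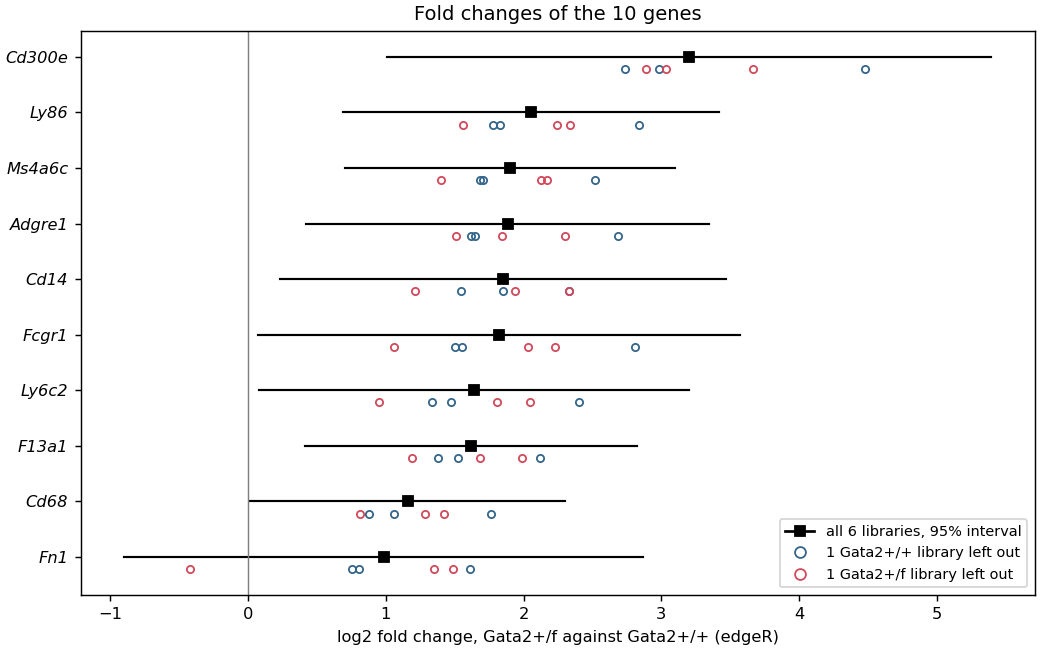
Log2 fold changes of the 10 genes in Gata2+/f against Gata2+/+ from edgeR (squares, with 95% intervals as lines) and the same value with 1 library left out (open circles, coloured by the group of that library). Cd300e lies farthest right, at 3.20, and Fn1 is the gene with a circle left of 0.

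Other cells make some of these products, so their markers were read beside them. F13a1 is also made by megakaryocytes, and Fn1 by fibroblasts. The 14 megakaryocyte and platelet genes summed to 657 to 891 CPM in the controls and to 149 to 349.7 CPM with Gata2+/f. Of the 13 tested, 7 had values above 0, with a median log2 fold change of 0.066. Before adjustment 2 were higher (11.1% of all genes) and 1 was lower (11.5%) at p below 0.05. Selp, the P-selectin of platelets and endothelium, was higher in each Gata2+/f library (14.1, 45.2 and 59.7 CPM) than in the controls (8.57, 13.7 and 6.77 CPM), with a log2 difference of 2.03 (SE 0.55, edgeR adjusted p = 0.125). Ppbp stayed at 0.0141 to 0.170 CPM in the 6 libraries and Pf4 at 0.141 to 0.868 CPM in 5 of them, with 24.9 CPM in Gata2+/f replicate 9. The integrin gene Itga2b went the other way, with 495 to 647 CPM in the controls and 20.4 to 106 CPM in Gata2+/f (log2 fold change −2.98). Itga2b alone made up most of the summed level of the list in the controls. What part megakaryocyte RNA has in the level of F13a1 was not tested. Fibroblast collagen genes were near 0 in every library, with Col1a1 at most 0.299 CPM, Col1a2 at most 0.392 CPM and Col3a1 and Lum listed at 0 throughout. The 12 stromal genes summed to 54.3, 49.4 and 59.6 CPM in the controls and to 4.78, 17.2 and 62.4 CPM in Gata2+/f. Within Gata2+/f this sum rose from replicate 7 to 9 to 11, as Fn1 did. Among the controls replicate 5 had the smallest sum and the most Fn1. What part stromal RNA has in the level of Fn1 was not tested.

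Levels can be set against each other once they are divided by the length of the annotated exons. Per kilobase, Ly6c2 was the most abundant of the 10 in both groups, at 63.5 ± 46.1 CPM per kilobase in Gata2+/+ and 198 ± 143 in Gata2+/f (SD, n = 3). Fn1, Ms4a6c, F13a1 and Cd68 followed in Gata2+/+ at 24.3, 24.2, 23.4 and 22.4 CPM per kilobase, closer together than their spread between libraries. In Gata2+/f the same genes stood at 48.0 (Fn1), 90.2 (Ms4a6c), 71.8 (F13a1) and 50.1 (Cd68) CPM per kilobase, with SDs of 20.6 to 52.6. Adgre1 came next among the controls, at 6.08 CPM per kilobase. Cd14, Ly86, Cd300e and Fcgr1 lay between 2.31 and 3.13 CPM per kilobase in Gata2+/+, again within their spread, and at 11.3, 12.8, 23.0 and 8.16 in Gata2+/f.

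The 10 genes did not move as 1 block, and libraries of the same group lay far apart. After each gene was centred on its own mean log2 CPM, the median of the 10 was −1.48, 0.104 and −1.46 in Gata2+/+ replicates 3, 5 and 6. It was 0.308, 0.515 and 1.83 in Gata2+/f replicates 7, 9 and 11. Gata2+/+ replicate 5 was the highest control for 9 of the 10 genes (34.2% of all genes), with 2.28 to 5.32 times the mean of the other 2 controls, and Cd14 was the exception at 1.02 times that mean. It came close to Gata2+/f replicates 7 and 9, which were above it for 6 and 7 of the 10 genes with median differences of 0.242 and 0.465 on the log2 scale. Within Gata2+/f, replicate 11 was the highest for 9 of the 10 (31.0% of all genes). Over all 6 libraries, no gene of the set was highest in replicate 7 (20.1% of all genes) and none was lowest in replicate 9 (22.7%), although replicate 9 was the lowest Gata2+/f library for 4 of them. Gata2+/f replicate 11 was above every control for all 10 genes (27.8% of all genes), replicate 9 for 7 (37.0%) and replicate 7 for 5 (35.1%).

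**Figure D3:**
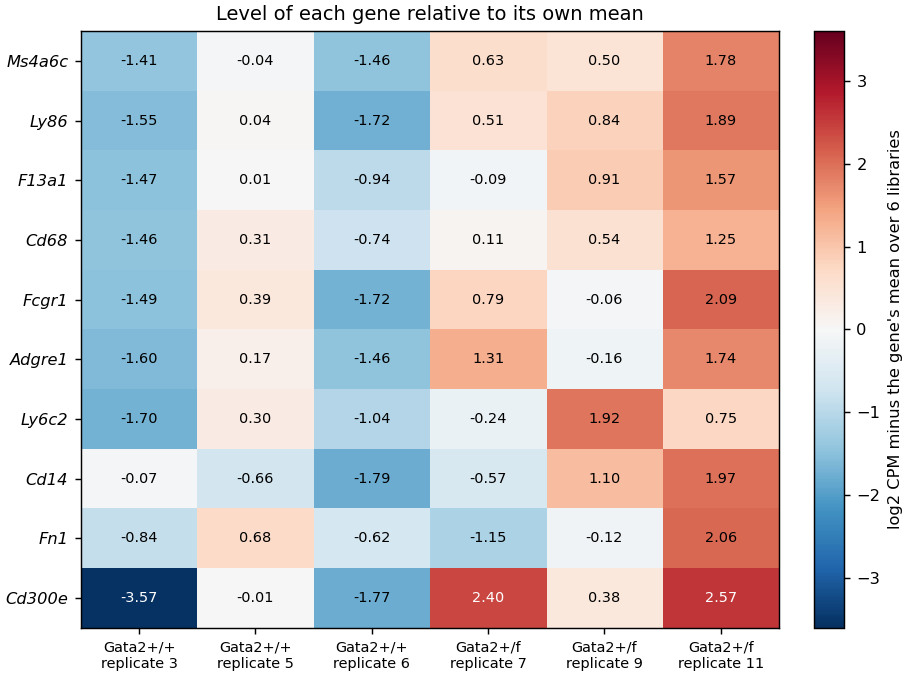
Log2 CPM of each gene minus its mean over the 6 libraries, with genes in rows from nearest to farthest from the mean profile of the set and libraries in columns; red is above and blue below the gene's own mean. Cd300e reaches 2.40 in Gata2+/f replicate 7, where Fn1 is at −1.15, and Ly6c2 reaches 1.92 in replicate 9.

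Within Gata2+/f, replicates 7 and 9 differed in which members of the set were higher. Cd300e, Adgre1 and Fcgr1 were higher in replicate 7, and Ly6c2, Cd14, Fn1 and F13a1 in replicate 9. From replicate 7 to replicate 9, Ly6c2 was 4.47 times as high, Cd14 3.20 times, Fn1 2.04 times and F13a1 2.01 times, while Cd300e was at 0.246, Adgre1 at 0.362 and Fcgr1 at 0.556 of the level in replicate 7. Ms4a6c (0.912), Ly86 (1.26) and Cd68 (1.35) lay closer to even. Cd300e was 0.278 of the CPM of Ly6c2 in replicate 7 and 0.0153 of it in replicate 9, with 0.157 in replicate 11 and 0.0118 to 0.0358 in the controls. The differences between these replicates have no replicate of their own and were not tested.

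Lists of stage markers were read in the same libraries. The 12 genes of granulocyte-monocyte progenitors, several of whose products fill the primary granules, summed to 12539 CPM in Gata2+/f replicate 9, against 2589 in replicate 7 and 3489 in replicate 11. In the controls the sums were 996, 3568 and 1466 CPM, so Gata2+/+ replicate 5 lay above Gata2+/f replicates 7 and 11. Myeloperoxidase (Mpo) was at 7305 CPM and neutrophil elastase (Elane) at 1480 CPM in replicate 9, where Ly6c2 was highest; the other 2 Gata2+/f libraries had 1562 and 1688 CPM of Mpo. All 12 genes of that list were higher in replicate 9 than in replicate 7; over all genes, 48.9% were higher in replicate 7. Of the genes of non-classical monocytes 8 of 12 were higher in replicate 7, as were 12 of 16 of tissue macrophages, with Vcam1 (15.9 and 36.7 CPM), Lgals3 (30.6 and 73.8 CPM) and Pglyrp1 (35.2 and 92.3 CPM) among those that were higher in replicate 9. Dendritic cell genes had the same share as tissue macrophages, with 9 of 12 higher in replicate 7. Classical monocyte genes split evenly (12 of 24), and 11 of 15 neutrophil genes were higher in replicate 9. Fcgr4, a receptor for immunoglobulin G of non-classical monocytes and neutrophils, had 252, 54.8 and 287 CPM in Gata2+/f replicates 7, 9 and 11. The complement gene C1qb had 71.0, 9.42 and 65.9 CPM, and Adgre4, of the same receptor family as Adgre1, had 73.1, 8.81 and 88.8 CPM. For all 3 of these, replicate 9 was the lowest Gata2+/f library, as it was for Cd300e, Adgre1, Fcgr1 and Ms4a6c.

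Beyond the set, 24 further genes of classical monocytes were all tested, and each had a value above 0 (median log2 fold change 1.82). None passed edgeR's test over all genes, 14 were higher at an unadjusted p under 0.05 (11.1% of all genes) and 10 had groups that did not overlap (13.1% of all genes). Csf1r, the receptor of the cytokine that monocytes and macrophages need to survive, was at 39.1, 122 and 36.8 CPM in the controls and at 166, 157 and 363 CPM in Gata2+/f. It repeats the order seen for Ms4a6c (log2 fold change 1.79, SE 0.56, edgeR adjusted p = 0.148). The interferon regulatory factor gene Irf8 (2.06), the thiol reductase gene Ifi30 (2.02) and the oxidase subunit gene Cybb (2.14) were among those of smallest p in that list, with edgeR adjusted p of 0.0966 to 0.126.

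Lists of later monocyte stages were less uniform. Of 12 genes of non-classical monocytes 9 had positive values, with a median of 0.83, and 4 were higher at an unadjusted p under 0.05 (11.1% of all genes). Treml4, a receptor of that subset, was at 0.260, 1.70 and 0.389 CPM in the controls and 14.3, 5.26 and 8.13 CPM in Gata2+/f, and its log2 difference of 3.55 (SE 0.83) did not pass edgeR's threshold over all genes. Among 17 genes of tissue macrophages 16 were tested, 13 had positive values, and the median was 0.53. In that list Spic, the factor of red pulp macrophages, was higher (2.29, edgeR adjusted p = 0.155), and Cd163, a scavenger receptor of haemoglobin, had a lower mean with overlapping groups (−1.95, adjusted p = 0.210). The macrophage receptor Marco was at or under 0.0149 CPM in all libraries.

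**Figure D4:**
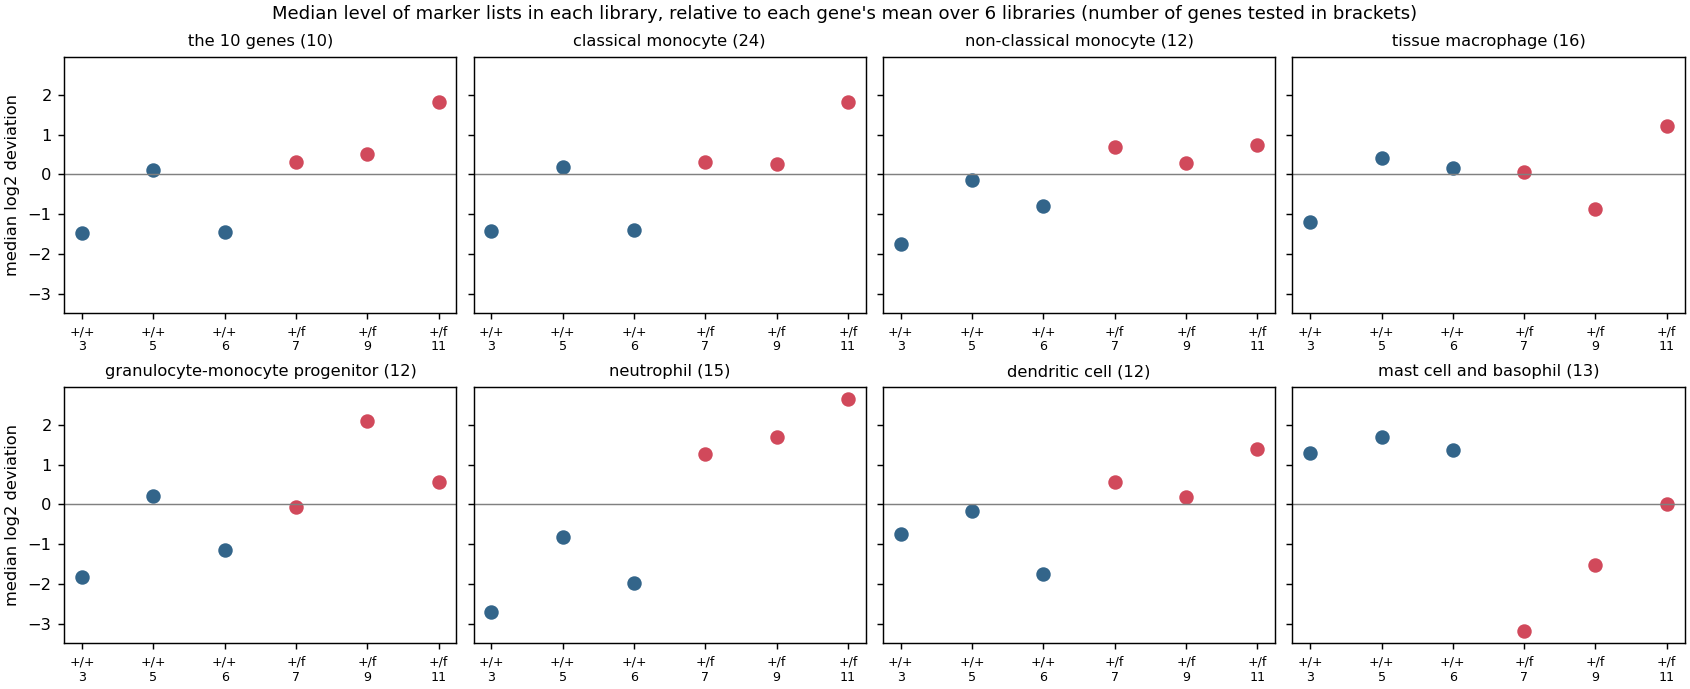
Median over the tested genes of a list of centred log2 CPM (each gene minus its own mean), with 1 point per library (blue Gata2+/+, red Gata2+/f). Replicate 5 is the highest control in every panel, including that of mast cell and basophil genes. The progenitor list alone peaks in Gata2+/f replicate 9, at 2.10.

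Neutrophil genes stood higher in the same Gata2+/f libraries, and mast cell genes lower. The 15 neutrophil genes summed to 163 to 483 CPM in the controls and 4137 to 8333 CPM in Gata2+/f. Their median log2 fold change was 3.49. All 15 were tested and positive, and 12 had groups that did not overlap (13.1% of all genes). None of the list's members was at 0, and the part of neutrophil RNA in the levels of genes that both lineages use was not tested. The 14 mast cell and basophil genes summed to 12225 to 14753 CPM in the controls and 1419 to 5080 CPM in Gata2+/f, and 12 of the 13 tested had negative values (median −2.43). Dendritic cell genes had a median of 1.22, with 11 of 12 positive. B cell genes summed to at most 26.3 CPM and T and NK cell genes to at most 107 CPM in a library.

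Partners of the receptors had unlike values. Tlr4, which signals for Cd14, was at 1.58, 3.35 and 1.82 CPM in the controls and 8.35, 4.19 and 21.9 CPM in Gata2+/f, without overlap (log2 fold change 2.35, SE 0.68, edgeR adjusted p = 0.132). Tlr2 was likewise higher in each Gata2+/f library (1.90, SE 0.47, adjusted p = 0.108). Ly96, which encodes the MD-2 subunit that Tlr4 needs to bind lipopolysaccharide, was at 3.20 ± 1.43 and 3.33 ± 0.895 CPM (0.057, SE 0.51; adjusted p = 0.960). The adaptor Myd88 was at 92.5 ± 3.12 and 85.9 ± 22.1 CPM (−0.11, SE 0.24; adjusted p = 0.812). Cd180, the receptor that MD-1 accompanies, was at 16.8 ± 7.77 and 30.4 ± 12.7 CPM with overlapping groups (0.86, SE 0.48), beside 2.05 for Ly86. Before adjustment 4 of the 12 genes in this list were higher (11.1% of all genes) and 1 was lower (11.5%) at p below 0.05, and 0 passed over all genes.

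The signalling chain of Fcgr1 showed the same contrast. Fcer1g, the common gamma chain that Fcgr1 needs, had 46.3, 62.1 and 226 CPM in the controls and 83.3, 90.0 and 166 CPM in Gata2+/f, so a control library was the highest (log2 fold change 0.021, SE 0.60; edgeR adjusted p = 0.987). Without that control, Gata2+/+ replicate 6, the log2 fold change of Fcer1g was 1.10. The chain also serves the IgE receptor of mast cells. Of the mast cell and basophil genes 12 of the 13 tested had negative values. Among them Ms4a2, the beta chain of that receptor, was at −0.51 with overlapping groups. What part mast cell RNA has in the level of Fcer1g was not tested. The Src family kinase gene Fgr was higher in each Gata2+/f library, by 2.35 on the log2 scale (adjusted p = 0.138), whereas Lyn was at −0.30 and Syk at 0.092. Fcgr4 had a log2 fold change of 2.88 (SE 0.90, adjusted p = 0.147).

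All 10 genes of the CD300 family and its adaptors had positive values, with a median log2 fold change of 1.97. Of these, 9 were higher at an unadjusted p under 0.05 (11.1% of all genes) and 0 over all genes by edgeR, and 6 had groups that did not overlap (13.1% of all genes). Cd300a (1.72), Cd300lb (2.07), Cd300ld3 (2.30) and Cd300c (3.01) had the smallest p, and Cd300c stayed under 1 CPM in every library, with 1 to 6 counts in the controls. Cd300lf, an inhibitory receptor, was at 14.4 CPM or less in the controls and at 28.2, 14.9 and 82.0 CPM in Gata2+/f, with replicate 9 lowest as for Cd300e. Tyrobp, the adaptor DAP12 through which several activating CD300 receptors signal, had a log2 fold change of 1.02 (SE 0.38, adjusted p = 0.184).

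The MS4A relatives of Ms4a6c differed among themselves. Ms4a6b and Ms4a6d had log2 fold changes of 1.92 and 1.71, near that of Ms4a6c, and both were highest in Gata2+/f replicate 11, at 82.5 and 80.4 CPM. Ms4a3, a gene of granulocyte-monocyte progenitors, was at 49.1, 294 and 74.4 CPM in Gata2+/f, highest in replicate 9. Ms4a2, which encodes the beta chain of the IgE receptor, was at 942 ± 115 and 660 ± 306 CPM (−0.51, SE 0.38; edgeR adjusted p = 0.438). Of 15 MS4A genes 11 were tested and 10 had positive values, and Ms4a5 was listed at 0 in every library.

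The 5 other genes whose profile over the 6 libraries lay nearest to the mean profile of the set were Xdh, Jaml, Tpd52, Hfe and Csf1r. Their Euclidean distances, in log2 CPM over 6 libraries, were 0.156, 0.191, 0.313, 0.316 and 0.349, against a median of 3.02 for all other genes. Within the set Ms4a6c (0.358) and Ly86 (0.513) lay nearest to that mean and Cd300e (3.04), Fn1 (2.04) and Cd14 (2.02) farthest. Xdh, which encodes xanthine dehydrogenase, had 10.9, 30.7 and 12.0 CPM in the controls and 37.7, 41.0 and 100.1 CPM in Gata2+/f, and it repeats the high values of Gata2+/+ replicate 5 and Gata2+/f replicate 11.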

How the data were processed

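RNA was measured by poly-A selected, stranded sequencing of 6 libraries. The authors' deposited values are RSEM expected counts per Ensembl gene, not normalized; the tools listed in the submitters' processing notes are STAR 2.5.4a, CASAVA 1.8.2 and RSEM 1.3.0, with the build GRCm38. The annotation and the strand setting of the counting are not given in the sources used here. Symbols and positions came from GENCODE M21 (GRCm38), which held 42548 of 43629 IDs (97.5%). Counts were rounded to whole numbers (11.7% of values were not whole), kept by filterByExpr of edgeR 4.0.16 in R 4.3.3 (minimum count 10; 15432 genes) and scaled by TMM.

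Groups were compared by edgeR's quasi-likelihood test (two-sided, genotype alone in the model), p-values were adjusted by Benjamini and Hochberg over the genes tested, and the threshold was 0.05. CPM use TMM library sizes; relative levels use log2 CPM with a prior count of 2. Intervals are 95%. DESeq2 1.42.0, limma voom 3.58.1, other scalings, other filters and leaving out each library were alternatives, and the tests were tested on simulated data. Lists are described by counts and medians.

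The 10 genes and the 20 marker and partner lists were chosen with earlier results of these data known. Named are the 10 genes, Gata2, Kit, direct receptor partners, up to 4 genes of smallest p per list (some are not reported here) and the 5 nearest profiles; Ppbp, Vcam1, Lgals3, Col1a1, Col1a2, Col3a1, Lum, Marco, Mpo, Elane, F13b, Cd300lf, Lyn, Syk, Myd88, Ms4a2, Ms4a3, Ms4a5 and BE692007 were chosen after their values were seen.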

Additional observations from a re-analysis of the deposited data

How the results depend on the processing

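Over all alternatives, 114 values of single genes kept their direction and their side of the threshold, 5 passed it with DESeq2, and 1 reversed. That one was Fn1 without Gata2+/f replicate 11, with a log2 fold change of −0.42, against 1.61 without Gata2+/+ replicate 5. DESeq2 called 5 of the 10 genes (6.58% of all genes were called higher), and the count was 0 with limma voom, the other scalings and filters, a threshold of 0.1 and each library left out. Over all genes, 2.88% passed the threshold of 0.1 and 0.0583% passed with limma voom. Of 15782 genes tested without Gata2+/f replicate 11, 10 were called higher and 56 lower. With no filter beyond 1 count, 10 of 23566 were higher and 9 lower. Without Gata2+/+ replicate 6, 1 of 15932 was lower, and the remaining settings called 0. The median of the 10 ran from 1.31 to 2.46 with 1 library left out and from 1.79 to 1.89 under the other alternatives. The number of genes higher at an unadjusted p under 0.05 was 8 or 9 under other tests, scalings and filters, and 3 to 8 with 1 library left out: 3 without Gata2+/f replicate 11, 4 without Gata2+/+ replicate 6, 5 without Gata2+/+ replicate 3, against 12.0%, 7.19% and 6.89% of all genes. Fewer libraries were tested there, and what part that has in the lower counts was not tested. Groups did not overlap for 3 to 8 of the 10 genes with 1 library left out: 8 when Gata2+/+ replicate 5 was dropped, 7 when Gata2+/f replicate 7 was and 5 when Gata2+/f replicate 9 was, against 21.6%, 18.5% and 17.7% of all genes. These 2 counts were added after seeing the data. No paired analysis was possible because the groups share no replicate number. Groups of 3 were too small for a check of single outlying libraries, so none was made.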

Other observations

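Relatives of the 10 genes included some with lower levels in Gata2+/f. Adgre5, the widely expressed CD97 relative of Adgre1, was at 1383, 1216 and 1276 CPM in Gata2+/+ replicates 3, 5 and 6 and at 436, 361 and 621 CPM in Gata2+/f replicates 7, 9 and 11 (edgeR's log2 fold change −1.45, SE 0.28, adjusted p = 0.0966). Cd63, a tetraspanin of lysosomes and secretory granules, was at 739, 383 and 781 CPM and at 15.9, 78.0 and 113 CPM (−3.20, SE 0.69, adjusted p = 0.0966), beside 1.16 for Cd68. For neither gene did the groups overlap, and neither passed the threshold.

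Neighbours of Ly6c2 in the Ly6 family were as uneven. Ly6g, the neutrophil member, was at 0.0779 to 0.409 CPM in the controls and at 1.74 to 6.68 CPM with Gata2+/f (edgeR's log2 fold change 4.25, SE 0.92, adjusted p = 0.0966), and Ly6e, which many cells express, was at 2142 ± 546 and 1280 ± 328 CPM (−0.74, SE 0.33, adjusted p = 0.229). The transglutaminase gene Tgm2, the tissue relative of F13a1, had 4.54 ± 2.78 CPM in the controls and 33.9 ± 18.6 CPM with Gata2+/f (2.90, SE 0.58, adjusted p = 0.0966), and highest in Gata2+/f replicate 9, at 55.3 CPM. F13b, the carrier subunit of factor XIII, was listed at 0 in all 6 libraries.

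Other lists of partners and cell types are given by their tested genes, counts above 0 and median log2 fold change, beside a median of 0.019 and 51.1% above 0 over all genes. Fc gamma receptors and their signalling genes had 7 of 8 above 0 (median 0.96), and the granulocyte-monocyte progenitor genes 12 of 12 (1.84). The Ly6 family had 5 of 7 (1.54), adhesion receptors related to Adgre1 had 4 of 6 (1.16), fibronectin receptors and cross-linking genes had 3 of 9 (−0.28), and lysosomal membrane genes had 2 of 6 (−0.087). Megakaryocyte genes had 7 of 13 (0.066), erythroid genes 5 of 10 (−0.033) and stromal genes 1 of 4 (−0.84). B cell genes had 6 of 6 (1.09) and T and NK cell genes 7 of 7 (1.55), all at low levels. In edgeR's test 0 genes of these lists passed at an adjusted p below 0.05.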
